A study of Mus musculus with 6 samples.

Results

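The genes described here encode 7 immunoglobulin-superfamily adhesion proteins: the junctional adhesion molecules F11r (JAM-A), Jam2 (JAM-B) and Jam3 (JAM-C), the coxsackievirus and adenovirus receptor Cxadr (CAR), the nectins Nectin2 and Nectin3, and the nectin-like protein Cadm1. The values come from all probe sets that GEO's platform annotation assigns to 1 of these symbols, and 26 of the 45037 probe sets that are not controls were found, for 7 of 18193 genes. Jam2 and Cxadr had 5 probe sets each, Nectin3 had 6, Cadm1 had 4, and F11r, Jam3 and Nectin2 had 2 each. The annotation assigns none of them to a further gene. RefSeq (GRCm38.p6) places Cxadr, Jam2 and Nectin3 on chromosome 16, Jam3 and Cadm1 on 9, F11r on 1 and Nectin2 on 7. A probe set is a group of short probes read together as 1 value.

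RNA of testes from mice 12 weeks old was hybridised to 6 Affymetrix arrays, 3 labelled jsd and 3 labelled SCARKO-jsd. All 6 arrays come from mice with the jsd (juvenile spermatogonial depletion) mutation of Utp14b, which leaves adult tubules with Sertoli cells and spermatogonia and few later germ cells. SCARKO-jsd mice carry in addition a knockout restricted to Sertoli cells, and the labels name neither the Cre driver nor the strain. There was no group with a normal germ line, so each value below is a comparison within a germ-cell-poor testis. The series gives 3 mice per genotype, but no label ties an array to a mouse, and the p-values measure the spread between arrays only.

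Proteins of this family hold neighbouring cells together by binding, through their immunoglobulin domains, to a like or a different family member on the next cell. Inside the cell they are tied to actin and to tight junctions by PDZ-domain scaffolds such as afadin and ZO-1. In the testis they work in 2 places: at the barrier between Sertoli cells, where F11r and Cxadr sit with the tight junctions, and between Sertoli cells and germ cells, where JAM-B pairs with JAM-C on spermatids, nectin-2 of Sertoli cells pairs with nectin-3 of spermatids, and Cadm1 of spermatogenic cells binds partners on Sertoli cells. RNA of a whole testis sums over these cells, so fewer cells of a type and less RNA per cell cannot be told apart in any value given here.

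Each value is log2 expression after RMA, the authors' normalization, and each difference is SCARKO-jsd minus jsd, so a difference of 1 is a doubling. A probe set was called dim where its mean over the 6 arrays lay in the lowest 40% of all probe sets, up to 5.69. Of the 26 member probe sets 20 were not dim. Levels of different probe sets are not compared as amounts of RNA, because probes differ in how well they bind. They were used to mark dim probe sets, to pick the brightest of a gene, and in means, sums and differences within an array. In sums of linear signal over markers, the brightest probe sets weigh most.

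No member probe set passed the test, and the differences farthest from 0 were those of a Jam2 and a Cxadr probe set. A Jam2 probe set was 3.86-fold lower in SCARKO-jsd testes, and 3 of the other 4 were lower by 0.28 to 0.46 on the log2 scale. The Cxadr probe set with the clearest difference was 3.00-fold higher. All 4 Cadm1 probe sets had lower means, by 0.18 to 0.45, and both Jam3 probe sets did, by 0.20 and 0.26. Of the 6 Nectin3 probe sets, 2 were higher by 0.25 each, without overlap between the groups. F11r and Nectin2 differed by 0.10 or less. By limma with Benjamini-Hochberg adjustment over all 45037 probe sets, 0 of the 26 were called at 0.05, where 0.155% of all probe sets were called lower and 0.124% higher. The smallest adjusted p of a member was 0.106.

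Read without adjustment, 8 of the 26 member probe sets (30.8%) had a limma p under 0.05, against 10.3% of all probe sets. Arrays of the groups did not overlap, with SCARKO-jsd lower, for 5 members (19.2%), against 6.93% of all probe sets. They did not overlap, with SCARKO-jsd higher, for 4 members (15.4%), against 9.99%. The median difference was -0.060 over the 26 and 0.013 over all probe sets. These shares are descriptions: several probe sets belong to 1 gene and measure the same RNA.

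**Figure D1:**
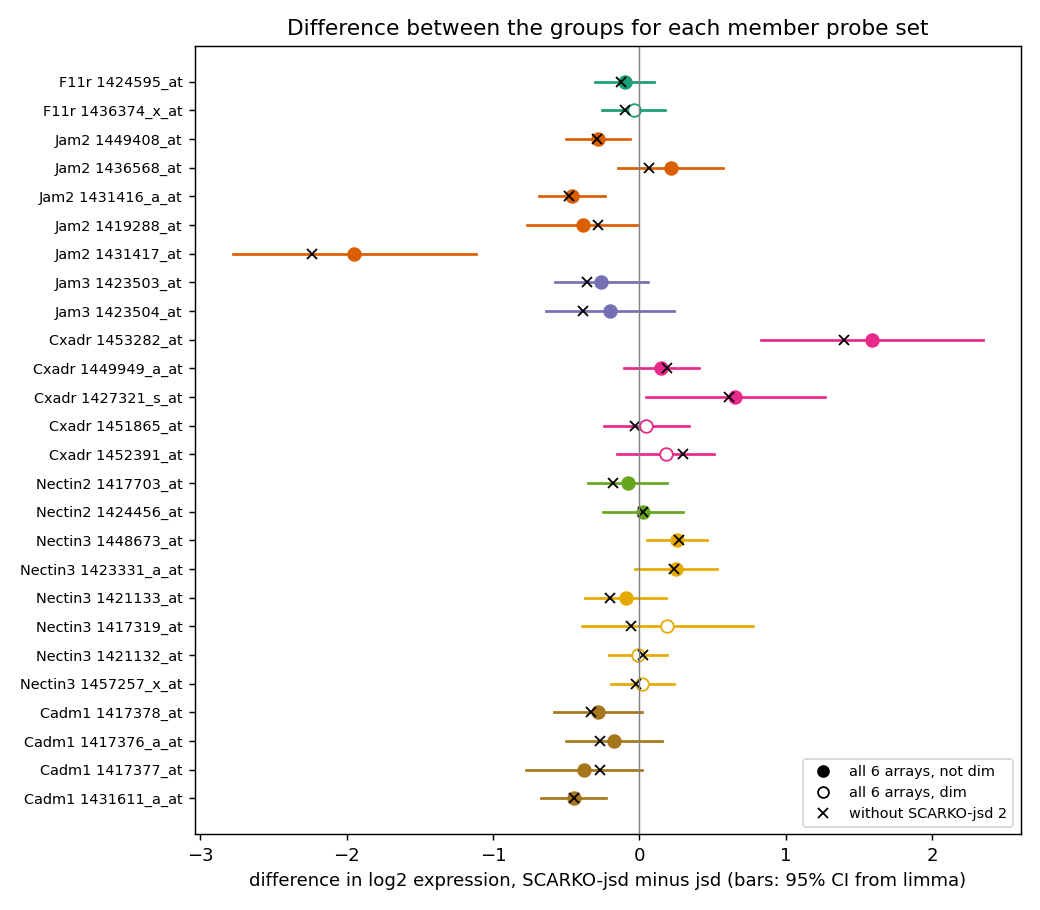
Difference in log2 expression, SCARKO-jsd minus jsd, for the 26 member probe sets (circles, open where dim), with the 95% confidence interval from limma (bars) and the value without SCARKO-jsd 2 (crosses). The Jam2 probe set 1431417_at lies farthest below 0 at -1.95 and the Cxadr probe set 1453282_at farthest above at 1.59.

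The genotype labels were checked on an X-linked homeobox gene of Sertoli cells that depends on androgen, Rhox5, which was 5.44 to 6.11 in the arrays labelled SCARKO-jsd and 9.74 to 10.43 in those labelled jsd. Utp14b, mutated in every mouse, was 7.34 to 7.68 in jsd arrays against 7.23 to 7.87 in SCARKO-jsd arrays. Array SCARKO-jsd 2 stood apart. Its correlation with any other array over all probe sets reached at most 0.975, whereas the highest correlation of each other array was 0.995 or 0.996. Its 3′ control probe set of beta-actin exceeded the 5′ one by 1.66 log2 units, against 0.70 to 0.98 elsewhere. The part of this array in the differences is shown by leaving it out. Without it, 1.39% of all probe sets were called, and among the members the Jam2 probe set 1431417_at was the only 1 called. The arrays then did not overlap, with SCARKO-jsd lower, for 12 of the 26 members (46.2%), against 16.1% of all probe sets, which 3 against 2 arrays reach more easily. Of the 9 measured Sertoli cell markers 0 were called, while 2 were higher and 1 was lower in SCARKO-jsd arrays without overlap. The shares over all probe sets were 9.99% and 6.93%. The markers' mean log2 level, in which opposite shifts can cancel, was 10.47 to 10.62 in jsd arrays against 10.48 to 10.70 in SCARKO-jsd arrays. The labelled tissue thus showed its Sertoli markers in both groups.

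Jam2 encodes JAM-B, the Sertoli cell partner of JAM-C, and the differences of its probe sets ran from -1.95 to 0.21, the widest range among the 7 genes. Probe set 1431417_at was 8.32, 7.78 and 7.22 in jsd 1, 2 and 3 against 5.59, 6.40 and 5.48 in SCARKO-jsd 1, 2 and 3. Every SCARKO-jsd array was lower than every jsd array, and the nearest arrays of the 2 groups were jsd 3 and SCARKO-jsd 2. The means were 7.77 ± 0.55 and 5.82 ± 0.50 (SD, n = 3), and the difference was -1.95 ± 0.35 (SE), with a 95% interval of -2.78 to -1.12. Its limma adjusted p was 0.106 over all probe sets and 0.0175 without SCARKO-jsd 2, where the difference was -2.24. SCARKO-jsd 1 and 3 lay below the dim limit, and the group mean was above it only through SCARKO-jsd 2. The fold and both differences are therefore set against a dim group, and their size is uncertain.

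The other Jam2 probe sets differed less. Probe set 1431416_a_at, designed on the same cDNA record as 1431417_at, was 9.09, 9.06 and 8.84 in jsd arrays against 8.53, 8.56 and 8.51 in SCARKO-jsd arrays. The groups did not overlap, and the SCARKO-jsd arrays lay closer together (SD 0.027) than the jsd arrays (SD 0.13). Its difference was -0.46 ± 0.094 (SE; limma adjusted p = 0.146). Probe set 1449408_at, the brightest of the gene, was 10.47, 10.30 and 10.44 in jsd arrays against 10.20, 10.13 and 10.03 in SCARKO-jsd arrays. Here too all SCARKO-jsd arrays were lower, with a smaller difference of -0.28 ± 0.090 (SE; limma adjusted p = 0.342). Probe set 1419288_at, designed on the same record as 1449408_at, was 7.34, 7.57 and 7.10 in jsd arrays against 7.13, 6.73 and 6.98 in SCARKO-jsd arrays. Those groups overlapped, since SCARKO-jsd 1 exceeded jsd 3, and the difference was -0.39 ± 0.16 (SE; limma adjusted p = 0.472). Probe set 1436568_at went the other way, with 9.68, 9.57 and 9.47 in jsd arrays against 9.71, 10.09 and 9.56 in SCARKO-jsd arrays. Its difference of 0.21 ± 0.15 (SE) was 0.065 without SCARKO-jsd 2. With the mean of the 5 probe sets, Jam2 was at -0.57 (limma adjusted p = 0.0645 over genes). That mean includes 1431417_at at -1.95, a difference of uncertain size, whereas the others lay between -0.46 and 0.21.

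**Figure D2:**
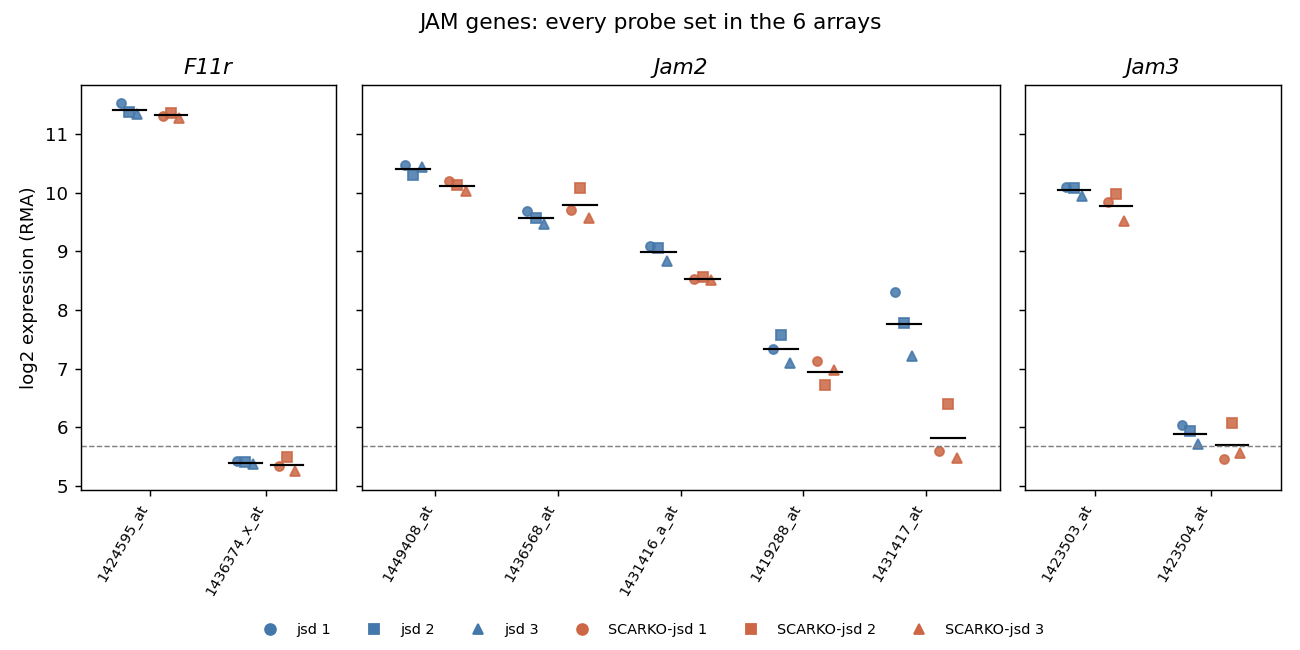
Log2 expression of every probe set of F11r, Jam2 and Jam3 in the 3 jsd arrays (blue) and the 3 SCARKO-jsd arrays (orange), with group means as black bars and the dim limit as a dashed line at 5.69. Jam2 1431417_at separates the groups, with a difference of -1.95, while F11r 1424595_at stays between 11.28 and 11.52 in all arrays.

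The other JAM genes showed small differences. Jam3, whose product JAM-C is found on spermatids and on endothelium, was 10.10, 10.07 and 9.95 in jsd arrays against 9.85, 9.97 and 9.52 in SCARKO-jsd arrays on 1423503_at. SCARKO-jsd 2 reached into the jsd range and the others lay below it. The difference was -0.26 ± 0.13 (SE), with a 95% interval of -0.58 to 0.060. Its other probe set, 1423504_at, lay close to the dim limit and differed by -0.20 ± 0.18 (SE). Without SCARKO-jsd 2 the Jam3 differences were -0.36 and -0.39, the groups did not overlap, and neither was called (limma adjusted p = 0.254 and 0.204). They were smaller without others, at -0.13 for 1423503_at without SCARKO-jsd 3 and -0.081 for 1423504_at without SCARKO-jsd 1. F11r encodes JAM-A, found in tight junctions of epithelium and endothelium. On 1424595_at it was 11.52, 11.38 and 11.35 in jsd arrays against 11.31, 11.36 and 11.28 in SCARKO-jsd arrays. The groups overlapped only through SCARKO-jsd 2. Their difference, -0.10 ± 0.084 (SE), had a 95% interval of -0.30 to 0.10. The second F11r probe set was dim, at 5.26 to 5.49 in all arrays.

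Cxadr encodes CAR, the adhesion protein that coxsackie B viruses and adenoviruses use to enter cells, and its 5 probe sets all had higher SCARKO-jsd means, by 0.048 to 1.59. Probe set 1453282_at was 5.70, 6.30 and 6.88 in jsd 1, 2 and 3 against 7.75, 8.26 and 7.63 in SCARKO-jsd 1, 2 and 3. All SCARKO-jsd arrays were higher, and the jsd arrays were spread over more than 1 log2 unit. The means were 6.29 ± 0.59 and 7.88 ± 0.34 (SD, n = 3) and the difference was 1.59 ± 0.32 (SE), with a 95% interval of 0.83 to 2.35. Its limma adjusted p was 0.140 over all probe sets. It was 0.0339 where each gene entered with its brightest probe set alone, a fit that called 2.26% of 18193 genes, and 0.0862 with the mean of the gene's probe sets. The choice of 1453282_at as brightest rested on the SCARKO-jsd arrays, because over the jsd arrays alone 1449949_a_at had the higher mean, 6.59.

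Probe set 1427321_s_at had a jsd mean of 5.67, under the dim limit, and counted as not dim only through its SCARKO-jsd arrays. It was 5.06, 5.93 and 6.02 in jsd arrays against 6.33, 6.40 and 6.24 in SCARKO-jsd arrays. The groups did not overlap, and jsd 1 lay well below the other arrays. The difference of 0.65 ± 0.25 (SE; limma adjusted p = 0.447) was 0.35 without jsd 1. Probe set 1449949_a_at was 6.57, 6.46 and 6.73 in jsd arrays against 6.69, 6.66 and 6.87 in SCARKO-jsd arrays. These groups overlapped, and the difference was 0.15 ± 0.11 (SE), with a 95% interval of -0.11 to 0.40, which does not reach the estimate for 1453282_at. The remaining Cxadr probe sets, 1451865_at and 1452391_at, were dim and differed by 0.048 and 0.18. Of these, 1452391_at was designed on the same cDNA record as 1427321_s_at.

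**Figure D3:**
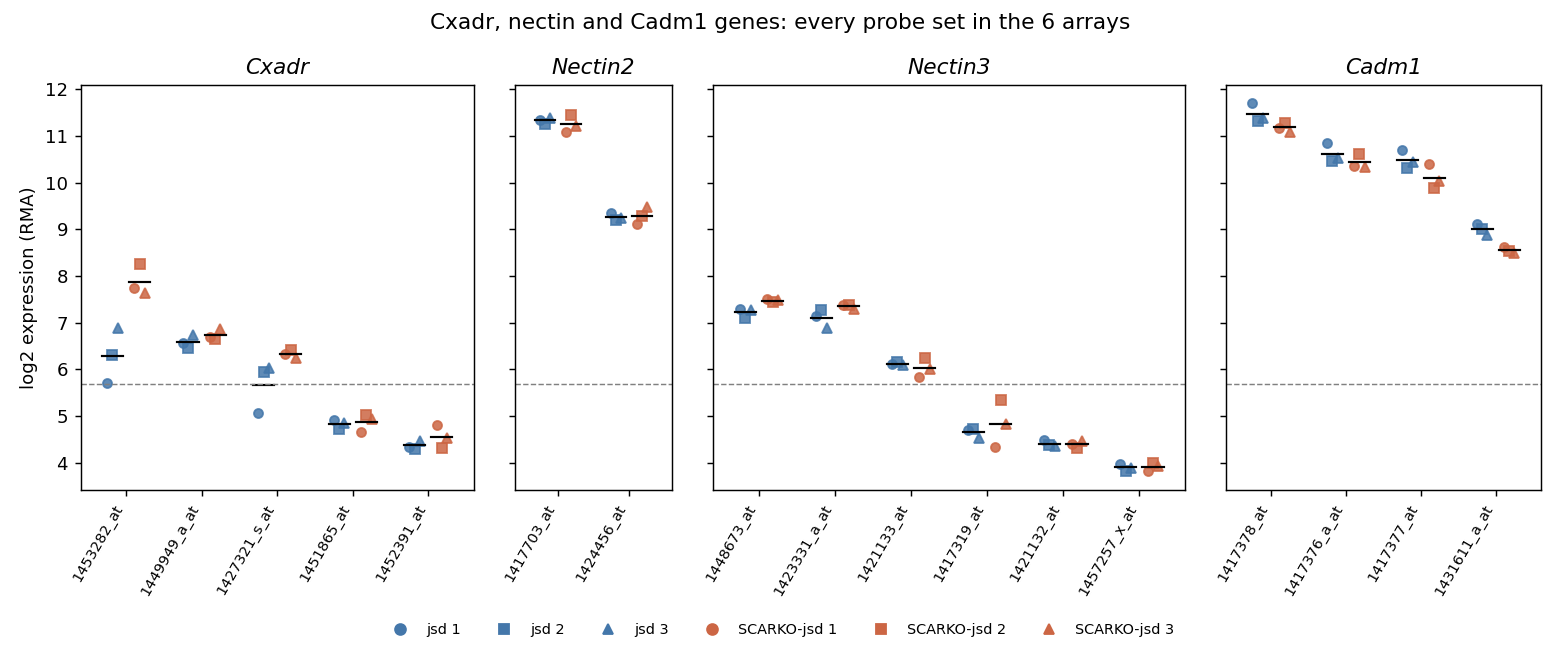
Log2 expression of every probe set of Cxadr, Nectin2, Nectin3 and Cadm1 in the 3 jsd arrays (blue) and the 3 SCARKO-jsd arrays (orange), with group means as black bars and the dim limit as a dashed line at 5.69. Cxadr 1453282_at runs from 5.70 to 6.88 in jsd arrays and from 7.63 to 8.26 in SCARKO-jsd arrays, while the Nectin2 groups overlap on both probe sets.

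Whether probe sets of 1 gene differed unequally was asked within each array, by subtracting the gene's brightest probe set from each other probe set. Of 19 such pairs, 10 had arrays that did not overlap between the groups, against 15.2% of the 16752 such pairs of all genes. Of these 10, 4 share the Cxadr reference 1453282_at, which was the brightest only through its SCARKO-jsd arrays, so that choice itself favours a shift. Over all 24 pairs of member probe sets that were not dim, 13 did not overlap, and with 1 array left out 10 to 13 of the 19 did not. The 15.2% is no measure for these counts, since it covers pairs against the brightest probe set with no array left out. With fewer arrays, groups also fail to overlap more easily. Cxadr 1427321_s_at entered the pairs that were not dim only through its SCARKO-jsd arrays. No share over all genes is given for these counts, so they are descriptions and set nothing apart in these genes. An exact permutation test of 3 against 3 arrays cannot give a p under 0.1, and the 10 pairs reached that value (two-sided, 0.19 after Benjamini-Hochberg adjustment over the 19), so none could pass 0.05. For Jam2, 1431417_at minus 1449408_at was -2.15, -2.52 and -3.22 in jsd arrays against -4.61, -3.73 and -4.55 in SCARKO-jsd arrays. The shift between groups was -1.67, and every SCARKO-jsd array had the larger distance between the probe sets. Jam2 1436568_at minus the same reference shifted by 0.50, also without overlap. For Cxadr, 1449949_a_at minus 1453282_at was 0.87, 0.16 and -0.14 in jsd arrays against -1.06, -1.61 and -0.76 in SCARKO-jsd arrays, a shift of -1.44. The other Cxadr pairs shifted by -0.93 (1427321_s_at), -1.54 (1451865_at) and -1.41 (1452391_at). The probe sets 1451865_at and 1452391_at were dim and differed by 0.048 and 0.18, so these shifts mostly repeat the reference's own difference of 1.59. For Nectin3, 1421133_at, 1421132_at and 1457257_x_at minus 1448673_at shifted by -0.35, -0.27 and -0.24 without overlap. Of these, 1421132_at and 1457257_x_at were dim. For Cxadr, the pair without the reference 1453282_at, 1427321_s_at minus 1449949_a_at, shifted by 0.51 and its groups overlapped. The Cadm1 pairs shifted by 0.11, -0.096 and -0.17, and only the pair at 0.11 (1417376_a_at minus 1417378_at) was without overlap. Positions of the probes in the transcripts were not used here, and the part of transcript ends or splice forms in these shifts was not tested.

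**Figure D4:**
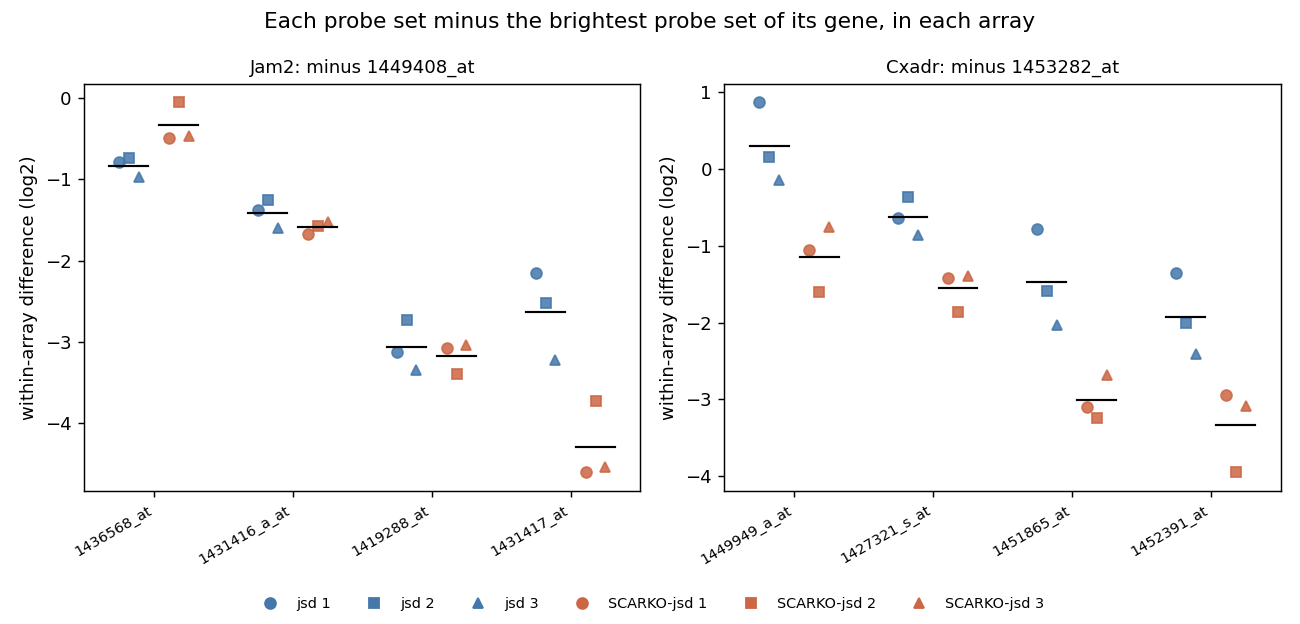
Each Jam2 probe set minus 1449408_at (left) and each Cxadr probe set minus 1453282_at (right), in log2 units within each array, for jsd (blue) and SCARKO-jsd (orange) arrays with group means as black bars. Jam2 1431417_at and all 4 Cxadr probe sets shift downward against their reference, and the SCARKO-jsd and jsd arrays do not overlap for them. Cxadr 1451865_at and 1452391_at were dim.

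The nectins differed little. Nectin2 encodes the nectin that Sertoli cells present to spermatids at the actin-rich ectoplasmic specialization. On 1417703_at it was 11.35, 11.27 and 11.39 in jsd arrays against 11.09, 11.45 and 11.22 in SCARKO-jsd arrays. SCARKO-jsd 2 was the highest array and SCARKO-jsd 1 the lowest, and the difference was -0.081 ± 0.11 (SE), with a 95% interval of -0.35 to 0.19. Its second probe set, 1424456_at, was 9.21 to 9.35 in jsd arrays against 9.11 to 9.47 in SCARKO-jsd arrays, with a difference of 0.025 ± 0.11 (SE). Nectin3 encodes the partner on the germ cell side. On 1448673_at it was 7.28, 7.11 and 7.27 in jsd arrays against 7.50, 7.44 and 7.47 in SCARKO-jsd arrays. The SCARKO-jsd arrays were all higher, by 0.25 ± 0.085 (SE; limma adjusted p = 0.371). On 1423331_a_at they were higher too, at 7.38, 7.38 and 7.29 against 7.14, 7.28 and 6.89, by 0.25 ± 0.12 (SE; limma adjusted p = 0.535). The remaining probe set that was not dim, 1421133_at, overlapped between the groups at 5.83 to 6.23, and the other 3 Nectin3 probe sets were dim and differed by -0.011 to 0.19.

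Cadm1 encodes a nectin-like protein found on spermatogenic cells and also on nerve, mast and epithelial cells, and its 4 probe sets all had lower SCARKO-jsd means. On 1417378_at, the brightest, it was 11.70, 11.32 and 11.38 in jsd arrays against 11.18, 11.28 and 11.09 in SCARKO-jsd arrays. The groups did not overlap, though jsd 2 exceeded SCARKO-jsd 2 by only a small step, and the difference was -0.28 ± 0.13 (SE), with a 95% interval of -0.58 to 0.019. On 1431611_a_at it was 8.88 to 9.11 in jsd arrays against 8.62, 8.54 and 8.48 in SCARKO-jsd arrays. Here all SCARKO-jsd arrays were clearly lower, by 0.45 in the mean, with a difference of -0.45 ± 0.092 (SE; limma adjusted p = 0.152). On 1417376_a_at and 1417377_at the groups overlapped, with differences of -0.18 ± 0.14 and -0.38 ± 0.16 (SE). Without jsd 1 the differences of 1417378_at and 1417376_a_at were -0.17 and -0.060.

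Part of the spermatocyte markers differed beside these genes. Of 10 such markers, all measured and 5 of them not dim, 1 was called higher (Sycp3, of the synaptonemal complex, by 1.31; limma adjusted p = 0.0339) and the arrays of 6, Sycp3 among them, did not overlap, with SCARKO-jsd higher. The other 4 overlapped, with differences of -0.077 to 0.78. Their mean log2 level was 5.42 to 5.62 in jsd arrays against 5.97 to 6.35 in SCARKO-jsd arrays, and their summed linear signal was 536 to 651 and 913 to 1264. Of 8 measured spermatogonial markers 0 were called, 4 were higher and 1 was lower without overlap, and the summed signal was 6691 to 8027 in jsd arrays against 7818 to 9261 in SCARKO-jsd arrays. Spermatid markers, with 0 of 8 called, summed to 460 to 533 and 518 to 650. Endothelial cells, which also make JAM proteins, had 0 of 8 markers called, and 1 was higher and 1 lower without overlap. The sums of these markers were 1635 to 2121 and 1709 to 2379. Markers of rete testis and epididymal epithelium, which also make Cxadr and F11r, had 0 of 8 measured called, and 3 were not dim. Of these 8, 1 was higher and 1 lower without overlap, and the sums were 596 to 627 and 503 to 665. Beside the counts without overlap of all these lists, the shares over all probe sets were 9.99% higher and 6.93% lower. The highest mean log2 levels of the Sertoli, spermatogonial, spermatocyte, endothelial and duct lists were all in SCARKO-jsd 2. The part of these cells in the Jam2, Cxadr and Cadm1 differences was not tested.

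Related receptors and the proteins that bind the cytoplasmic tails were read from their brightest probe sets. Of 18 related adhesion genes 15 were measured, and 0 were called by limma at an adjusted p under 0.05, where 0.484% of brightest probe sets were. Their median difference was 0.036, against 0.044 over all 18193 genes. Pvr, a nectin-like receptor of Sertoli cells that binds Cadm1, had the smallest p. It was 10.02, 9.82 and 9.88 in jsd arrays against 9.35, 9.70 and 9.58 in SCARKO-jsd arrays, lower in all 3, with a difference of -0.36 ± 0.12 (SE; limma adjusted p = 0.344). With its probe sets averaged it was called, at -0.49 (limma adjusted p = 0.0262 over genes), in a fit that called 1.9% of all genes. Clmp, a CAR-like membrane protein, was 7.23 to 7.43 in jsd arrays against 7.53 to 7.60 in SCARKO-jsd arrays, with a difference of 0.23 ± 0.087 (SE; limma adjusted p = 0.429).

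Of 34 cytoplasmic partners 31 were measured, 0 were called, and the median difference was 0.0067. Pard6g, a PAR6 polarity protein that joins PAR3 and atypical protein kinase C at JAM-rich junctions, was 8.40, 8.25 and 8.24 in jsd arrays against 8.85, 8.73 and 8.73 in SCARKO-jsd arrays. It was higher in all 3, by 0.48 ± 0.086 (SE; limma adjusted p = 0.111). Mpp3, a membrane-associated guanylate kinase that binds nectins and nectin-like proteins, was 9.34, 9.41 and 9.19 in jsd arrays against 8.72, 7.79 and 8.26 in SCARKO-jsd arrays. It was lower in all 3, with a difference of -1.06 ± 0.23 (SE; limma adjusted p = 0.169), a 2.08-fold lower level. In the fit with the brightest probe set per gene both had adjusted p under 0.05 (limma, 0.0403 for Pard6g and 0.0476 for Mpp3). That fit called 2.26% of all genes. With probe sets averaged per gene neither was called, at 0.28 for Pard6g and -0.62 for Mpp3 (limma adjusted p = 0.185 and 0.0707 over genes).

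Among 12965 genes that are no members and whose brightest probe set was not dim, the array pattern of Jam2 1431417_at was most like those of Dixdc1, Cdo1 and Aqp8. Likeness was the root mean square difference over the 6 arrays after each probe set was centred on its own mean. It was 0.170 for Dixdc1, a DIX-domain protein of Wnt signalling, 0.203 for Cdo1, a cysteine dioxygenase, and 0.236 for Aqp8, a water channel. Dixdc1 was 9.87, 9.69 and 9.06 in jsd arrays against 7.34, 7.90 and 7.43 in SCARKO-jsd arrays. The genes were picked for this likeness over the same arrays, so it is a description.

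**Figure D5:**
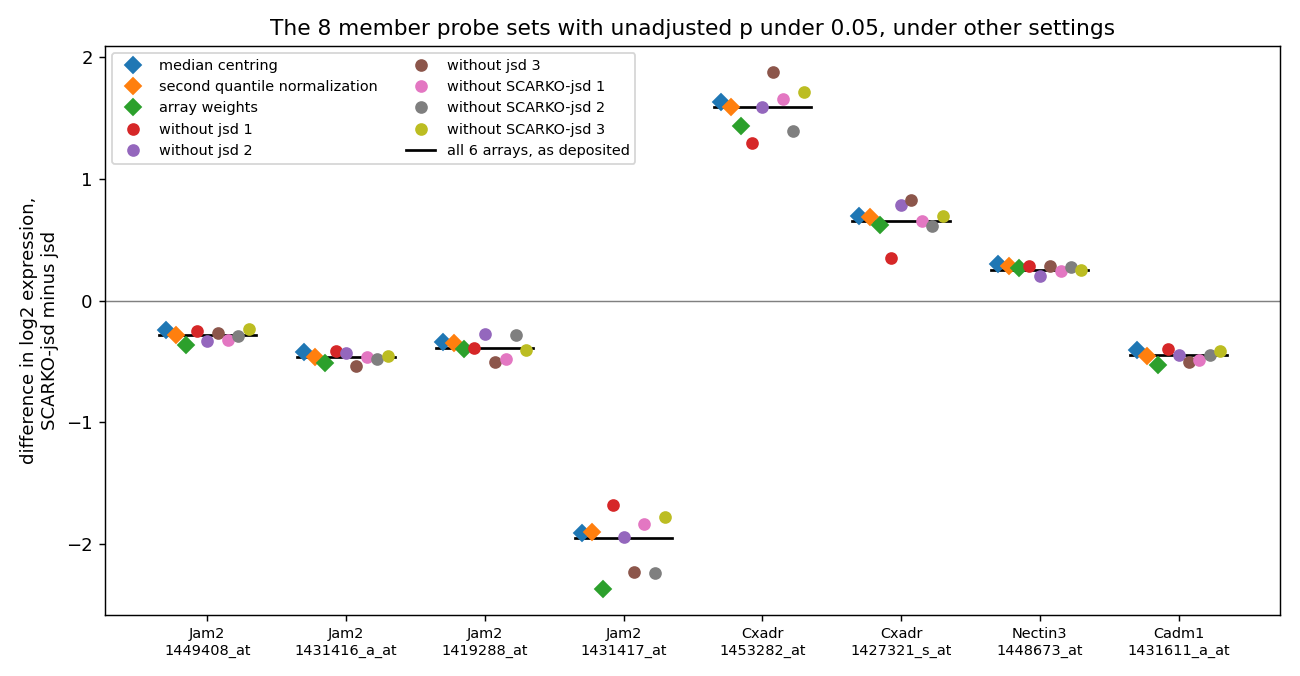
Difference in log2 expression, SCARKO-jsd minus jsd, of the 8 member probe sets with an unadjusted limma p under 0.05, with all 6 arrays (black lines), with each array left out (circles) and with other scalings or array weights (diamonds). The differences of Jam2 1431417_at and Cxadr 1453282_at lie between -2.37 and -1.68 and between 1.29 and 1.88. Since their groups do not overlap, leaving out an array cannot move them across 0.

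Over the settings drawn, Jam2 1431417_at lay between -2.37 and -1.68 and Cxadr 1453282_at between 1.29 and 1.88. Their groups do not overlap, so leaving out 1 array could change the size of these differences but not their direction. With array weights, 12 of the 26 members (46.2%) were called, against 19.7% of all probe sets. Those weights gave SCARKO-jsd 3 a weight of 15.6 and every other array 0.16 to 1.24, and the estimation stopped before it converged, so that fit leans mostly on 1 array.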

How the data were processed

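The authors deposited 1 log2 value for every probe set and array. The submitters' processing notes name RMA and the affy package. The versions are not given in the sources used here. Quantile normalization within RMA equalises the arrays' distributions, so a shift of most transcripts would not show. The median of array SCARKO-jsd 2 was 6.26, and those of the other arrays were 6.40 to 6.41.

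All 45037 probe sets that are not Affymetrix controls (64) were fitted with limma 3.58.1 (lmFit, eBayes without trend, genotype only, two-sided) in R 4.3.3, with Benjamini-Hochberg adjustment over all of them, a threshold of 0.05 and no filter on dim probe sets. Differences between probe sets of a gene were tested by exact permutation. Symbols, some perhaps outdated, are those of GEO's annotation of the platform, where 34945 probe sets had 1 symbol, 932 several and 9160 none. Names were compared with RefSeq (GRCm38.p6) by gene ID, and 0 needed updating. In the lists, Mpp5 and Mpp6 stand for Pals1 and Pals2. The members and gene lists were chosen with earlier results of these data known. Named genes are all members, the 2 genes with the smallest p where a list had no call, and the 3 genes most like the member with the smallest p. Sycp3 was named as the only called marker. The gene knocked out in Sertoli cells is not reported here.

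Alternatives were filters on dim probe sets, 1 value per gene, other scalings, trend and robust, array weights, a replicate block, other thresholds (0.01, 0.1) and leaving out single arrays. Same-numbered arrays were not treated as pairs. Their deviations from the group means correlated at -0.27, 0.24 and 0.35. The fit was tested on simulated data. Having 3 arrays per group limits the precision. Figures used matplotlib 3.10.9.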

Additional observations from a re-analysis of the deposited data

How the results depend on the processing

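Calls over the whole table depended on the setting. The 126 called probe sets became 412 genes with 1 brightest probe set each, 390 without the dimmest genes, 346 with probe sets averaged per gene, 215 with trend and robust, 8870 with array weights, 63 with median centring, and 15 and 372 at thresholds of 0.01 and 0.1. With a replicate block 0 remained called (limma), and no member had an adjusted p under 0.191 in that fit. Leaving out 1 array gave 0 calls over the table without jsd 1, 3 without jsd 2, 25 without jsd 3, 19 without SCARKO-jsd 1, 627 without SCARKO-jsd 2 and 14 without SCARKO-jsd 3, 0 to 1 among the members and 0 for the related and partner genes. Median centring moved the split of calls from 56 higher and 70 lower to 35 and 28. Of the member probe sets, 1 of the 7 tested was called with the brightest probe set per gene, with or without the dimmest genes (Cxadr). With array weights 12 of 26 were called. Of the related and partner genes, 2 were called with the brightest probe set per gene and 2 without the dimmest genes. Averaging probe sets per gene gave 1, and array weights gave 13. In that order, those fits called 2.26%, 3.57%, 1.9% and 19.7% of everything they tested. Of 340 member values under these settings, 311 kept direction and side of the threshold, 15 passed it and 14 changed direction. With median centring F11r 1436374_x_at was 0.0047 and Nectin3 1421132_at 0.033. With array weights Jam2 1436568_at was -0.016 and Nectin3 1421132_at 0.044. With 1 array left out, F11r 1436374_x_at ran from -0.10 to 0.016, Cxadr 1451865_at from -0.028 to 0.16, Nectin2 1424456_at from -0.065 to 0.11, and the Nectin3 probe sets 1417319_at, 1421132_at and 1457257_x_at from -0.061 to 0.44, -0.043 to 0.027 and -0.023 to 0.070. The cause of these changes was not tested. Having 3 arrays per group, and signal close to background for the 6 dim probe sets, limits all of these values.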
